A study of Mus musculus with 68 samples.

Results

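Genes were sought whose basal RNA level set C57BL/6J (B6) fibroblasts apart from the fibroblasts of 7 other inbred mouse strains. A gene was a member when both B6 control libraries lay above, or both lay below, all 16 control libraries of the other strains. The rule found 604 of 12547 autosomal genes that passed a filter on low values, or 4.81%, of which 319 were higher in B6 (2.54%) and 285 were lower (2.27%). The founder tables listed 13197 genes, of which 12571 were matched to an autosome, and 24 of those did not pass the filter.

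Mouse embryonic fibroblasts (MEFs) are primary connective tissue cells grown from embryos. The lines came from the 8 founder strains of the Collaborative Cross, a mouse panel bred to hold wide genetic diversity: 129S1Sv/ImJ (129), A/J (A), C57BL/6J (B6), CAST/EiJ (CAST), NOD/ShiLtJ (NOD), NZO/H1LtJ (NZO), PWK/PhJ (PWK) and WSB/EiJ (WSB). Each line pooled cells of several female embryos of a shared litter, so every strain had 1 line, and the replicates were cultures of that line. Strain and cell line therefore cannot be told apart, and every SE and p-value given here measures the spread between cultures. Control cultures received 0.1% DMSO for 4 h, and treated cultures received tunicamycin (TM) at 2 ug/ml in the same solvent. TM blocks N-linked glycosylation of proteins in the endoplasmic reticulum (ER) and so causes ER stress. There were 2 control libraries for each strain except A and PWK, which had 3, and 3 TM libraries for each strain except B6 and CAST, which had 2.

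Fibroblasts make and turn over collagen-rich matrix, keep a positional identity through Hox and T-box genes, and signal to neighbouring cells through growth factors, their binding proteins and chemokines. Insulin-like growth factors (IGFs) drive fetal growth. IGF-binding proteins hold these ligands in the medium or the matrix and either limit or prolong their action. B6 is also the strain from which the mouse reference genome was made.

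Values are reads per gene scaled between libraries by the trimmed mean of M-values (TMM) and were not divided by gene length, so a level was compared only between samples of the same gene. The 18 controls held 7091923 to 21530282 reads on genes (median 14072068), and B6 controls 2 and 3 held 21530282 and 9651004. The sum of 12 fibroblast markers, among them Col1a1, Vim and Fn1, was 30050 and 27910 in the B6 controls, inside the 21420 to 56340 of the others. Among these 12, Pdgfra and Thy1 were called higher in B6, and Col1a2 and Col3a1 lower. Markers of myeloid, endothelial, epithelial, neural and mesothelial cells summed to between 4.56 and 43.7 in B6, also inside the range of the others. Of these markers only the neural Pax6 was called, lower in B6, at 0 in both B6 controls against 0 to 1.28. The 3 chondrocyte markers listed summed to 166 and 131 in B6 and to 56.9 to 629 in the others, with 1 called higher and 2 lower, and none of the 5 skeletal muscle markers was listed. A control 1 stood apart from A controls 2 and 3 (Spearman correlation 0.953, against 0.997 between those 2). Without it the member counts were 349 higher and 315 lower. In bulk RNA, fewer cells of a type and less RNA per cell cannot be told apart.

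Most members differed modestly. The median fold was 1.65 for those higher in B6 and 1.54 for those lower, computed from the log2 difference between the B6 mean and the mean of the 7 other strain means. A difference of at least 2 fold was seen for 118 higher and 84 lower members, and of at least 4 fold for 29 and 19. These values chose the members and are given as a description. Few were weakly expressed throughout, since 21 higher and 21 lower members had a mean under 2 both in B6 and over the other strains. They lay on all 19 autosomes, from 3.4% of the genes tested on chromosome 17 to 6.49% on chromosome 19. Counted the same way, 350 genes set NOD apart, 457 A, 471 NZO, 725 129, 887 WSB, 1424 PWK and 1506 CAST. A and PWK had 3 controls to place outside the rest, so their counts met a stricter rule. The strain whose control mean lay nearest to the B6 mean was WSB for 144 members and A for 40, the most and the fewest.

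The TM libraries, which the rule did not use, gave a test of the members in the same cell lines. A gene was called when the limma contrast of B6 with the mean of the other 7 strains had an adjusted p below 0.01 and a difference of at least 1.5 fold. In TM libraries, 4.31% of the 12551 genes tested were called, and 194 of the 604 members (32.1%) were called in the direction of the controls. These were 99 of the 319 higher members, when 1.98% of all genes were called higher, and 95 of the 285 lower members, when 2.33% were called lower, and 0 were called the opposite way. The called members include Trim12a, which passed the filter only through its B6 values, and others of that kind were not counted apart. The sign of the difference was kept by 599 members (99.2%), against 80.8% of 11923 other genes. Both B6 TM libraries lay outside all other TM libraries, on the same side, for 200 members (33.1%), against 2.92% of all genes. They were 111 higher members, against 1.63%, and 89 lower members, against 1.28%. In the controls, whose values chose the members, 254 were called by the same limits (42.1%), against 4.82% of all genes. Leaving out B6 TM 1 reduced the calls over all genes to 80 higher and 94 lower, and leaving out B6 TM 3 to 81 and 103, from 249 and 292. In each of those fits 1 B6 library remained and was assumed to vary like the libraries of the other strains.

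**Figure D1:**
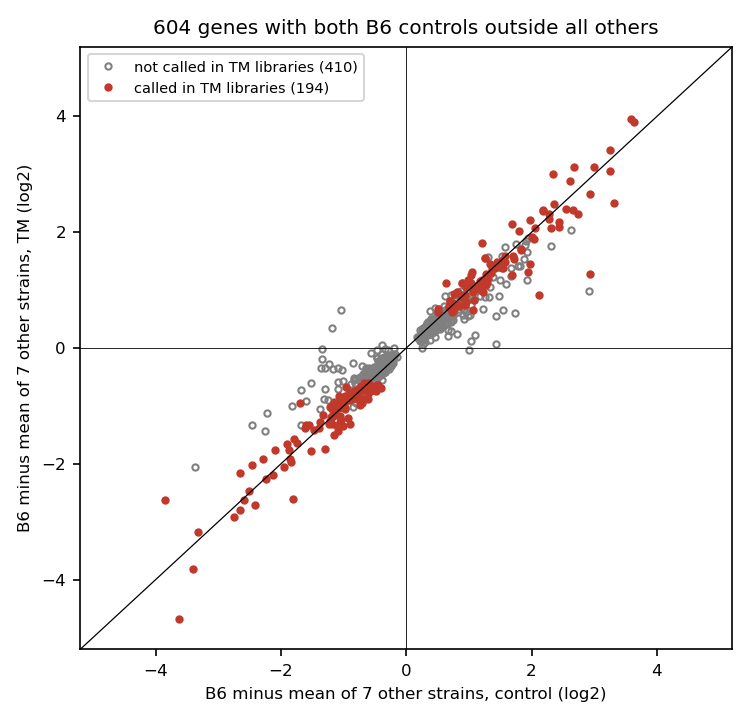
Log2 difference between B6 and the mean of the 7 other strains in control libraries (x axis) and TM libraries (y axis), with 1 point for each of the 604 members and a line of equality. The 194 members called in the TM libraries (filled) lie near the line on the side their controls chose, and the 410 not called are open. Of the 188 higher and 163 lower members at 1.5 fold or more in controls, 97 and 87 were called.

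The pair of IGF-binding protein genes Igfbp2 and Igfbp5 stood at opposite extremes in B6. They are neighbours on chromosome 1 (GRCm38), Igfbp2 at chr1:72824503-72852474 on the forward strand and Igfbp5 at chr1:72857932-72874884 on the reverse strand. Igfbp5 read 607 and 510.5 in the B6 controls, while the other 16 controls ran from 19.1 through a median of 39.3 to 347. The highest of those was an NZO library, and the NZO controls lay closest to B6. The Igfbp5 difference was 3.26 ± 0.23 (log2, SE) in controls and 3.42 ± 0.24 in TM libraries (limma adjusted p = 2.73e-08), where B6 read 430.5 and 391 against 9.15 to 285. Igfbp2 went the other way, with 43.1 and 29.7 in the B6 controls and 52.2 to 875 (median 359) in the others. Its difference was -2.65 ± 0.22 in controls and -2.80 ± 0.26 in TM libraries (limma adjusted p = 7.15e-07). The groups did not overlap for either gene in either treatment, and NOD was nearest to B6 for Igfbp2.

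The 250 bases before the RefSeq start of each gene are shown because these neighbours differ in opposite directions. They are reference sequence, which is B6 sequence, from RefSeq (GRCm38.p6). Capitals mark the GC box letters GGGCGG, read on both strands. The Igfbp2 window is chr1:72824230-72824479 on the forward strand, the farther upstream of 2 listed starts, and the Igfbp5 window is chr1:72874866-72875115 on the reverse strand. The RefSeq start of Igfbp5 lies slightly inside the GENCODE span given above, so the window begins within that span.
Igfbp2: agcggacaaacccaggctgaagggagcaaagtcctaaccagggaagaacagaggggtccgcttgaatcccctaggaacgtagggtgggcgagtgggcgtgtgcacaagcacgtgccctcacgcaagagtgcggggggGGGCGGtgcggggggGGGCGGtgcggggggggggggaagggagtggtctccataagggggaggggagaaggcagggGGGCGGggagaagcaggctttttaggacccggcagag
Igfbp5: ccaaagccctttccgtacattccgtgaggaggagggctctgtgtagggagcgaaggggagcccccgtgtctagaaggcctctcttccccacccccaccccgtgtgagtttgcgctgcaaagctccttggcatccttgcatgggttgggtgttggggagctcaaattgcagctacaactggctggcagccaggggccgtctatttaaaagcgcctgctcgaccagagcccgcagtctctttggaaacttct
The Igfbp2 window held 3 GC boxes and the Igfbp5 window 0, and neither held the TATA box letters TATAAA on either strand. Over 32851 promoter windows of this length, 32.7% held a GC box and 12.4% a TATA box. Windows were found for 468 of the 604 members. A GC box was present in 48.3% of the 362 windows of higher members and 62.0% of the 263 windows of lower members, against 57.3% of the 12584 windows of genes tested.

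Igf2, the fetal growth factor that these binding proteins hold, read 237 and 234 in the B6 controls and 33.1 to 163 (median 91.4) in the others. H19, a non-coding RNA beside it that is expressed from the maternal allele while Igf2 is expressed from the paternal allele, read 269 and 209 against 27.0 to 159 (median 81.2). They lie at chr7:142650766-142666816 and chr7:142575529-142578143, both on the reverse strand. All B6 values of both genes were above all others in controls and in TM libraries. The differences in TM libraries were 1.402 ± 0.16 for Igf2 (limma adjusted p = 6.73e-06) and 1.59 ± 0.14 for H19 (limma adjusted p = 6.98e-07). CAST was low for both genes, whereas PWK was nearest to B6 for H19 and among the lowest strains for Igf2. Igfbp4, no member, was called higher in B6, with 345 and 370.3 in the B6 controls against 67.3 to 429.

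Igf2 and H19 belong to a list of imprinted genes, which are expressed from the allele of a given parent. Of 18 measured, 3 were called higher in controls and 0 lower, when 2.34% of all genes were called higher and 2.48% lower. The list median was 0.28 (log2), against 0.006 over all genes, and 4 genes of the list were members, all higher. The third call was Dlk1, a transmembrane inhibitor of adipocyte differentiation. It read 164 and 166 in the B6 controls and 19.7 to 158 in the others, where the 158 was a NOD library. Its TM difference was 1.14 ± 0.13 (limma adjusted p = 9.3e-06), with B6 TM values of 137 and 128 that overlapped the other strains' range up to 134. The fourth, Plagl1, a zinc finger transcription factor, read 50.3 and 50.7 against 13.2 to 39.5 and was not called in TM libraries (limma adjusted p = 0.0931).

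**Figure D2:**
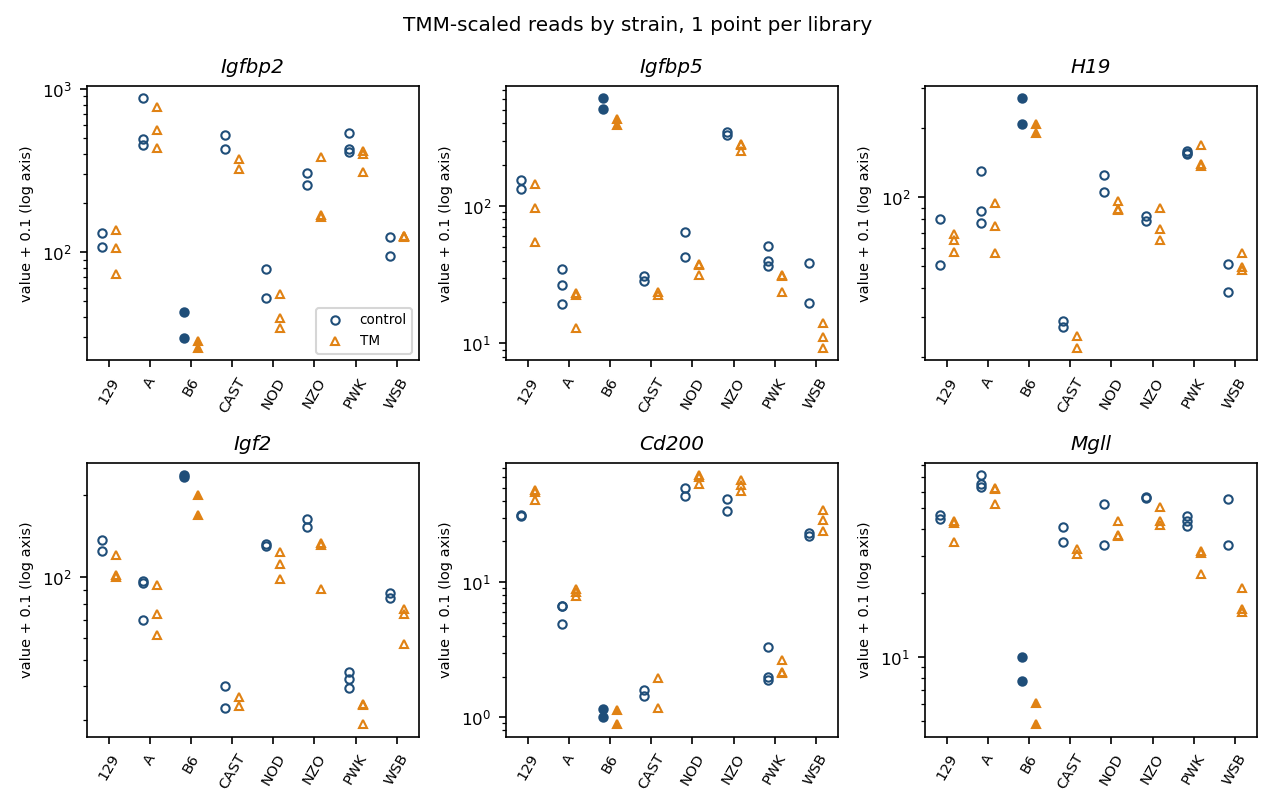
TMM-scaled reads plus 0.1 (log axis) for 6 genes by strain, 1 point per library, with circles for control and triangles for TM and filled symbols for B6. B6 lies lowest for Igfbp2, Mgll and Cd200 and highest for Igfbp5, H19 and Igf2 in both treatments.

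Among growth factors and their binding proteins, 4 of 42 measured genes were called higher in controls and 3 lower, with a list median of -0.18 (log2). Over all genes, 2.34% were called higher and 2.48% lower. Grem1, a secreted antagonist of bone morphogenetic proteins (BMPs), read 603 and 550.3 against 146 to 502, a TM difference of 0.88 ± 0.19 (limma adjusted p = 0.00495). Bmp2, a BMP ligand, read 2.58 and 1.82 against 0.328 to 1.74, and Bmp1, a protease that matures collagen, read 294 in both B6 controls against 295 to 454. Pdgfa, a mitogen of fibroblasts, read 60.2 and 59.1 against 68.8 to 154. Bmp2, Bmp1 and Pdgfa were members without a call in controls or in TM libraries. The calls higher in controls included Igfbp4, Igfbp5 and Grem1. The calls lower in controls were Igfbp2 and the non-members Tgfb2 and Ccn5.

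The largest differences among members higher in B6 fell on genes of several kinds. Lgr5, a receptor for R-spondins that strengthens Wnt signals, read 20.98 and 15.6 in the B6 controls and 0.588 to 7.94 (median 1.20) in the others. Gpr149, an orphan G protein-coupled receptor, read 54.0 and 62.0 against 0.353 to 36.3 (median 11.7). Ube2ql1, which resembles ubiquitin-conjugating enzymes, read 11.4 and 9.32 and never passed 1.61 in the other controls. All 3 were called in TM libraries, Gpr149 with a difference of 2.89 ± 0.16 (limma adjusted p = 9.95e-10) and Ube2ql1 with 3.06 ± 0.36 (limma adjusted p = 1.12e-05). Ube2ql1 was called against each of the other 7 strains in TM libraries.

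Enzymes and signalling proteins followed. Car6, a secreted carbonic anhydrase, read 5.06 and 5.77 in the B6 controls against 0 to 1.57, and 9.34 and 9.16 in the B6 TM libraries against 1.76 to 8.80. Its difference was 2.94 ± 0.37 (log2) in controls and 1.28 ± 0.20 in TM libraries (limma adjusted p = 0.000241). The difference in TM libraries minus that in controls was -1.66 ± 0.40, a description, since the control values chose the gene. Styk1, a kinase-like membrane protein, read 13.3 and 11.1 against 0 to 8.44. Sh2d6, an SH2 domain protein, read 5.06 and 8.20 against 0.143 to 2.36, and Fmn2, a formin that nucleates actin filaments, read 5.11 and 4.15 against 0 to 1.89.

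Several of the most different genes have close relatives, between which reads can be shared, and their values are uncertain. Trim12a, a tripartite motif protein of an antiviral gene cluster, read 2.71 and 2.53 in the B6 controls and 0 to 1.36 in the others. Ly6c1, a surface protein anchored by a lipid, read 25.6 and 20.4 against 0 to 13.0 (median 1.82), with PWK nearest. Its neighbour Ly6a, named after its values were seen, was a member in the same direction. Gvin1, a large interferon-inducible GTPase, read 41.8 and 34.0 against 0.570 to 32.7, and in TM libraries B6 no longer lay outside the others. Ugt1a7c, a glucuronosyltransferase that shares exons with its cluster, read 4.65 and 4.46 against 0.0819 to 2.36. Trim12a, Ly6c1, Gvin1 and Ugt1a7c were called in TM libraries, with differences from 2.31 to 3.96. Trim12a passed the filter in TM libraries only through its B6 values, 3.30 and 2.93, since no other TM library passed 0.384. In controls it also passed only through B6, since no other control except WSB control 2 (1.36) reached 0.5. Its calls in both treatments are therefore a description. Leaving out any 1 library of 129, CAST, NOD, NZO, PWK or B6 ended the control call of Ly6c1, with a difference between 3.42 and 3.75. For low genes the size depended on the number added before the logarithm. With 1 in place of 0.1, the control difference of Trim12a was 1.62 instead of 3.64, and that of Ly6c1 was 2.88 instead of 3.58.

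**Figure D3:**
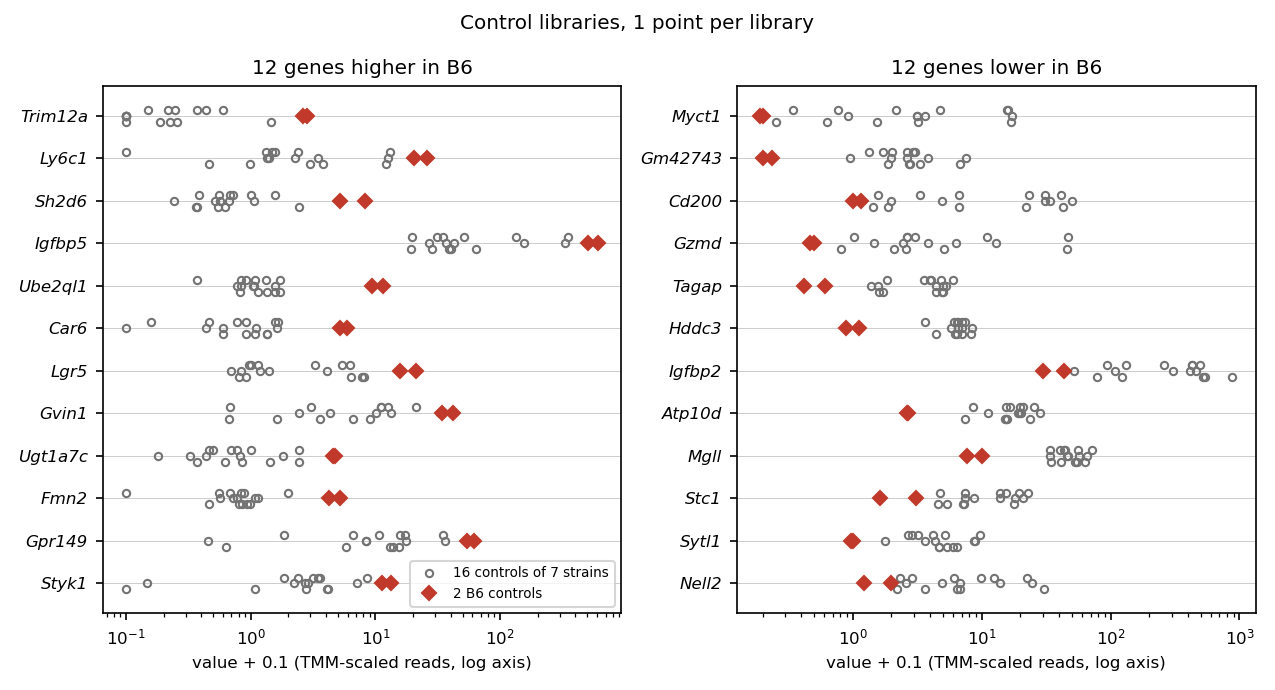
Control values plus 0.1 (log axis) of 24 members, the 12 farthest above and the 12 farthest below the other strains on the log2 scale, 1 point per library. In each row both B6 controls (diamonds) lie outside the 16 controls of the other strains (circles).

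The largest differences among members lower in B6 also fell on genes of several kinds. Mgll, the monoacylglycerol lipase that breaks down the endocannabinoid 2-arachidonoylglycerol, read 9.94 and 7.60 in the B6 controls and 33.7 to 71.7 (median 46.3) in the others. In TM libraries B6 read 5.94 and 4.71 against 16.1 to 62.4, a difference of -2.71 ± 0.13 (limma adjusted p = 9.06e-11). Cd200, a surface glycoprotein that restrains myeloid cells through its receptor, read 1.06 and 0.912 against 1.35 to 49.9 (median 14.3), with CAST nearest. Its TM difference was -3.82 ± 0.17 (limma adjusted p = 1.5e-11). Atp10d, a phospholipid flippase gene that the annotation calls a polymorphic pseudogene, read 2.58 and 2.53 against 7.30 to 28.2. Fabp5, a fatty acid-binding protein, read 31.4 and 29.5 against 50.2 to 103. It was the sole call, lower in B6, among 21 adipogenic and lipid-handling genes (list median -0.09), when 2.48% of all genes were called lower. Mgll and Atp10d were called lower against each of the other 7 strains in TM libraries, and Fabp5 was not.

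Secreted and intracellular proteins of varied roles made up the rest. Stc1, the hormone-like glycoprotein stanniocalcin, read 2.99 and 1.52 against 4.51 to 22.6, and Nell2, a secreted glycoprotein, read 1.89 and 1.11 against 2.12 to 30.5. Hddc3, a phosphohydrolase, read 0.782 and 1.01 against 3.53 to 8.36. Tagap, a GTPase-activating protein studied in T cells, read 0.322 and 0.506 against 1.29 to 5.91. Sytl1, a synaptotagmin-like protein of vesicle transport, read 0.874 and 0.912 against 1.68 to 9.59. Myct1, a Myc target, read 0.0920 and 0.101 against 0.155 to 17.1, and in TM libraries it fell within the range of the others. The predicted non-coding RNA Gm42743 read 0.138 and 0.101 against 0.850 to 7.41. A read counts as 0.0460 in B6 control 2 and as 0.101 in B6 control 3. The B6 control values of Myct1 and Gm42743 therefore rest on few reads, and the size of their differences is uncertain. Gzmd, a granzyme with near-identical relatives, read 0.368 and 0.405 against 0.710 to 46.3. Its neighbour Gzmg, named after its values were seen, was listed at 0 in both B6 controls and at 0.0512 to 1.61 in the others. That lowest value is a single read in PWK control 2, while a read in B6 control 3 counts as 0.101. Gzmg was therefore near the floor. All 12 of the lowest members, Igfbp2 among them, were called lower in TM libraries, with differences from -1.92 to -4.68.

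Nnt, the mitochondrial transhydrogenase that makes NADPH, carries a multi-exon deletion in C57BL/6J and was therefore examined by name. It lies on chromosome 13 at chr13:119335448-119408997, reverse strand. B6 controls read 46.6 and 41.5, and the others ran from 49.6 through a median of 69.7 to 90.8. The difference was -0.61 ± 0.09 in controls and -0.61 ± 0.11 in TM libraries (limma adjusted p = 0.0015), where B6 read 42.0 and 42.1 against 42.3 to 85.5. The nearest strain was NZO, and the values count reads over the whole gene, so they do not show which exons were covered. The difference was close to the limit of 1.5 fold. The control call was lost without B6 control 3 (-0.53), and the TM call without B6 TM 1 or B6 TM 3 and with the replicate number as a block (-0.58). Of 14 genes of mitochondrial NADPH and peroxide handling, 2 were called lower and 0 higher, when 2.48% of all genes were called lower, and the list median was -0.08. The second was Me3, the mitochondrial NADP-dependent malic enzyme, which read 1.98 and 1.72 against 2.02 to 5.61.

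Chemokines and cytokines were the list with the most calls in the lower direction. Of 25 measured, 8 were called lower in B6 controls and 0 higher, with a list median of -0.98 (log2) against 0.006 over all genes. In TM libraries 9 were called lower. The share of all genes called lower was 2.48% in controls and 2.33% in TM libraries. Both B6 controls of Cxcl1, a neutrophil chemoattractant, were below all others, at 0.644 and 0.506 against 0.741 to 13.5 (median 3.22). TM-treated B6 cells read 13.4 and 14.8 against 17.02 to 146, a difference of -1.76 ± 0.16 (limma adjusted p = 7.15e-07). Csf3, the granulocyte colony-stimulating factor, read 0.414 and 0.203 against 0.441 to 2.18, and its control call was lost with 1 added before the logarithm, in edgeR (adjusted p = 0.0154) and without B6 control 2 or 3. The other 6 called genes were no members, because libraries of another strain reached as low as B6. With B6 control 2 or B6 control 3 left out, 3 genes of the list were called lower. The monocyte chemoattractant Ccl2 read 21.3 and 20.7 against 9.79 to 152, and the related Ccl7 read 15.6 and 18.3 against 14.8 to 67.0. Cxcl5, another neutrophil chemoattractant, read 4.10 and 3.34 against 3.28 to 36.4. Myeloid markers, summed over 11 genes, were 43.7 and 41.8 in the B6 controls and 8.97 to 71.1 in the others, and their part in the chemokine values was not tested.

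Complement and acute-phase genes had a list median of -0.82, with 3 of 20 called lower and 0 higher. For this list and the 2 below, the shares over all genes were 2.48% lower and 2.34% higher. Serpina3g, a serine protease inhibitor with close relatives, was a member, at 0.598 and 0.506 against 0.808 to 9.84. The others were Cd59a, an inhibitor of the complement membrane attack complex, and Saa3, an acute-phase protein of fibroblasts and macrophages. Among interferon-stimulated genes the calls were 1 higher and 0 lower of 32, with a list median of -0.34. The higher call was Trim12a, which passed the filter only through its B6 values, so it is a description. In TM libraries 1 gene of this list was called higher, Trim12a again, and 2 lower, when 1.98% and 2.33% of all genes were. Among MHC class I and antigen processing genes, H2-T22 was called higher and H2-T10 lower of 17, and these are close relatives. The median of that list was -0.23.

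**Figure D4:**
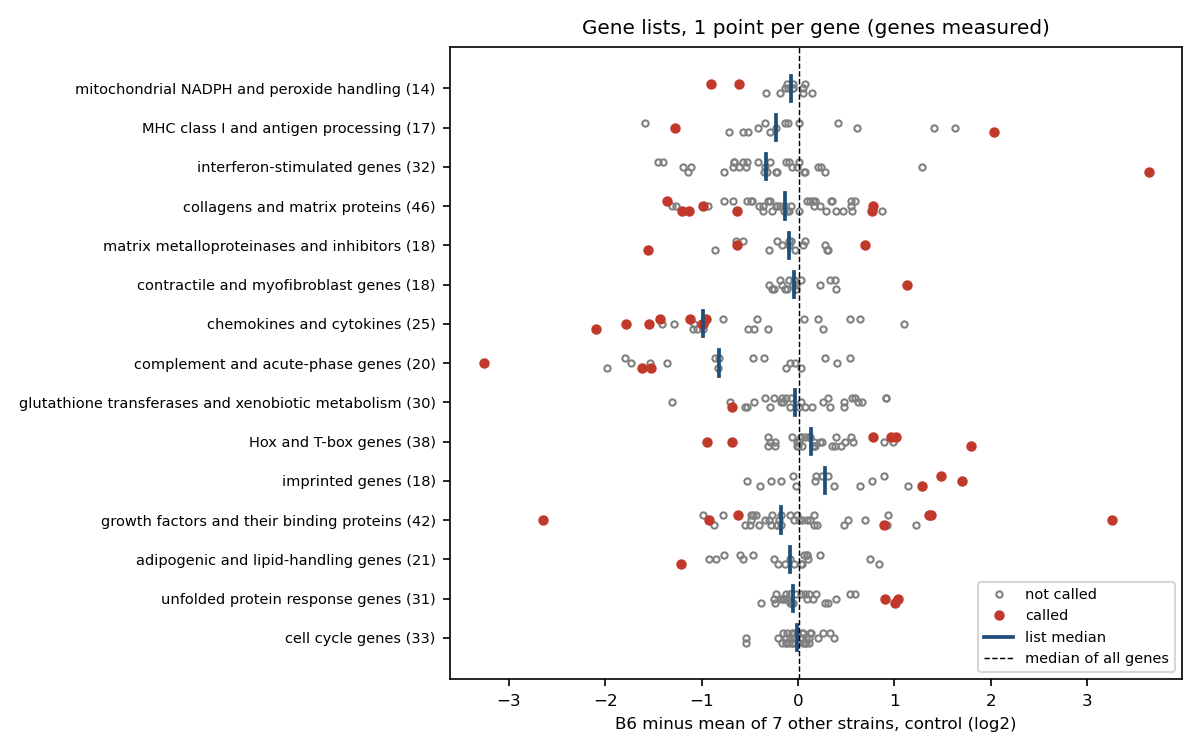
Log2 difference between B6 and the mean of the 7 other strains in controls for each measured gene of 15 lists, with called genes filled, a bar at each list median and a dashed line at the median of all genes. The medians of chemokines and cytokines (-0.98) and of complement and acute-phase genes (-0.82) lie farthest from the dashed line.

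In the matrix list, 5 of 46 collagens and matrix proteins were called lower and 2 higher in controls, with a median of -0.14. Of all genes, 2.48% were called lower and 2.34% higher. Col8a1, a short-chain collagen, read 159.7 and 147 in the B6 controls against 213 to 517 (median 351). It was called lower in TM libraries, with a difference of -1.19 ± 0.16 (limma adjusted p = 3.77e-05). The fibrillar collagen genes Col1a2 and Col3a1 were called lower without being members, since the lowest of the other controls overlapped B6. Lama4, a laminin chain of basement membranes, read 26.3 and 23.6 against 28.3 to 70.5. Thbs2, a matricellular protein that curbs angiogenesis, went the other way, with 469.9 and 463 against 148 to 349. Neither Lama4 (limma adjusted p = 0.0221) nor Thbs2 (limma adjusted p = 0.0131) was called in TM libraries, where their values overlapped those of the other strains. Col5a2 and Col15a1 were lower members that were called in neither treatment. Without A control 1, the calls in this list were 8 lower and 3 higher.

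Matrix metalloproteinases and their inhibitors had 1 call higher and 2 lower of 18, when 2.34% of all genes were called higher and 2.48% lower. Mmp11, stromelysin 3, read 48.7 and 59.3 against 24.1 to 47.8 and was called in TM libraries (limma adjusted p = 0.000152). Timp2, an inhibitor of these enzymes, was a member at 1862 and 1758 against 1163 to 1742, a difference of 0.28 ± 0.08. Of 18 contractile and myofibroblast genes, 1 was called higher, the non-member Des. Lmod1, an actin nucleator of smooth muscle, read 187 and 186 against 119 to 174 and was not called in TM libraries (limma adjusted p = 0.0388). In the list of 30 glutathione transferases and xenobiotic metabolism genes, 1 was called lower and 0 higher. Nqo1, a quinone reductase of that list, was a member without a call, at 88.7 and 91.6 against 26.6 to 83.8.

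Positional genes differed in both directions. Of 38 Hox and T-box genes, 4 were called higher and 2 lower in controls, and 4 and 0 in TM libraries. The shares over all genes were 2.34% and 2.48% in controls, and 1.98% and 2.33% in TM libraries. Hoxb9, a trunk Hox gene, was the member, at 71.7 and 70.9 in the B6 controls against 16.5 to 68.7. In TM libraries its values were 85.8 and 86.8 against 15.96 to 84.2, a difference of 1.05 ± 0.20 (limma adjusted p = 0.00179). Hoxc10, Tbx4 and Pitx1, genes of the caudal trunk and hindlimb, were called higher in both treatments while libraries of other strains overlapped B6. Tbx4 read 7.87 and 10.0 against 0.414 to 8.62. Hoxa2 and Hoxa5, expressed farther toward the head, were called lower in controls. Sox9, a chondrocyte marker, was a higher member at 30.5 and 30.1 against 7.35 to 22.9, while the cartilage genes Acan and Col2a1 were called lower.

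The unfolded protein response restores protein folding in the ER, and prolonged stress turns on Ddit3 (CHOP) and its targets. Of 31 genes of this response, 3 were called higher in B6 controls and 0 lower, with a list median of -0.06. The shares over all genes were 2.34% higher and 2.48% lower. Trib3, a pseudokinase induced by ATF4 and CHOP, read 53.1 and 56.6 against 11.3 to 50.5 (median 31.5). Chac1, a glutathione-degrading enzyme of the same branch, read 48.9 and 46.4 against 13.8 to 45.7 (median 22.2). Ddit3 itself was no member, at 68.5 and 65.9 against 26.1 to 68.7. The highest values outside B6 came from CAST for Trib3, WSB for Chac1 and A control 1 for Ddit3. In TM libraries none of the 31 was called, when 4.31% of all genes were, so 0 of 31 is near that share. There B6 read 233 and 191 for Trib3 against 138 to 261, and 166 and 165 for Chac1 against 126 to 271, in the middle of the other strains. The B6 difference in TM libraries minus that in controls was -0.92 ± 0.20 (log2) for Trib3 and -1.05 ± 0.23 for Chac1. These values are a description, because both genes were chosen for extreme control values, which by itself favours a smaller difference in other libraries. For Ddit3 it was -0.79 ± 0.30. Over all genes, 0 of 12527 passed the limma test of that change, with or without a replicate block, and 165 had an unadjusted p below 0.05. That is a smaller share than the 0.05 such a test gives without any change. The test was therefore strict, and the 0 does not show an unchanged difference. With B6 control 2 or B6 control 3 left out, 1 of the 3 control calls remained.

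**Figure D5:**
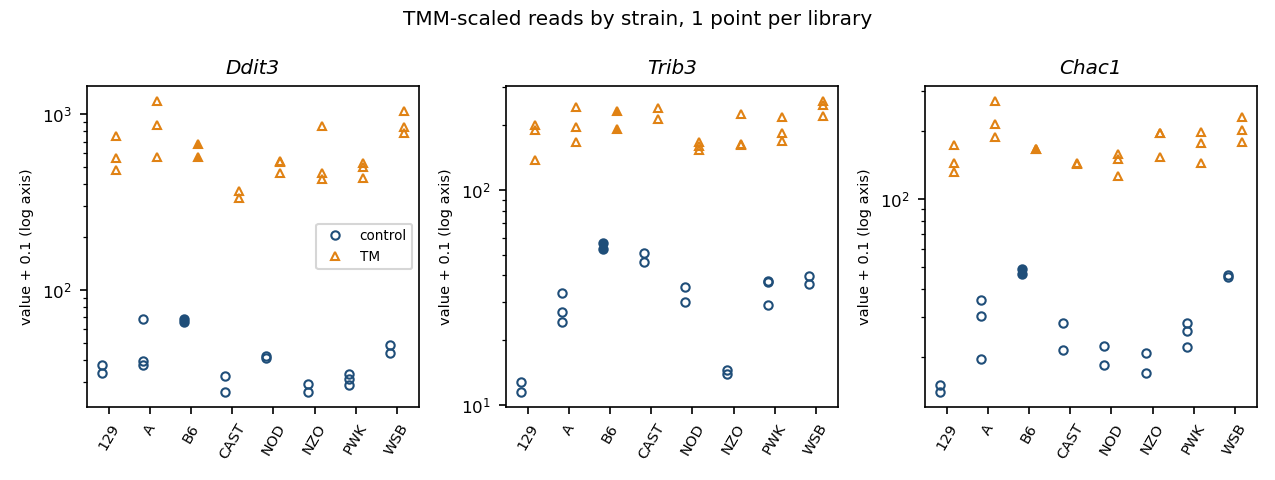
TMM-scaled reads plus 0.1 (log axis) of Ddit3, Trib3 and Chac1 by strain, 1 point per library, with circles for control and triangles for TM and filled symbols for B6. The B6 controls are at or near the top of the controls, while the B6 TM libraries lie within the range of the other strains.

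The 250 bases before Chac1 and Trib3 are shown because both genes were higher in B6 controls and answer to the same transcription factors. The windows are chr2:119350992-119351241 on the forward strand for Chac1 and chr2:152344061-152344310 on the reverse strand for Trib3, again from RefSeq (GRCm38.p6). Capitals mark the C/EBP-ATF composite element letters TGATGCAA, the GC box GGGCGG and the TATA box TATAAA, read on both strands.
Chac1: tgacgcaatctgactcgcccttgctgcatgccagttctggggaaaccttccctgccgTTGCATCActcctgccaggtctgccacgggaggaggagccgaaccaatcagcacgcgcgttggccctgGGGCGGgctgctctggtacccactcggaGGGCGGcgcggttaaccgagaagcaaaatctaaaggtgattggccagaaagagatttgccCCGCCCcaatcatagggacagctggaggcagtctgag
Trib3: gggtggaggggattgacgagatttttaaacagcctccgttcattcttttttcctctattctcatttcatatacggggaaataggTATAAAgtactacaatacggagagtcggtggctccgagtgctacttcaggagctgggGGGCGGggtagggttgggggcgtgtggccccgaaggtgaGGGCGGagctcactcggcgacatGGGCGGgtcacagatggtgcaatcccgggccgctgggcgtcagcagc
The Chac1 window held 1 composite element and 3 GC boxes, and the Trib3 window held 1 TATA box and 3 GC boxes and no exact composite element. The composite element letters were present in 0.791% of all promoter windows and in 0.532% of those of genes tested.

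No gene of 33 in the cell cycle list was called in either direction by limma in controls or TM libraries, nor in controls by edgeR on the recovered reads. Over the 15 lists, 20 of 402 genes were called higher and 28 lower in controls, when 2.34% and 2.48% of all genes were, and the median over these genes was -0.08.

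A difference from the mean of 7 strains can come from few of them. In controls, 26 genes (0.207%) were called in B6 against each of the other 7 strains, 10 higher and 16 lower, and all 26 were members. In TM libraries 15 of them were again called against each strain in the same direction, when 0.183% of all genes met that rule there. Genes of this set named after their values were seen include Gpnmb, a membrane glycoprotein of lysosomes and melanosomes, which read 97.6 and 109.7 in the B6 controls against 11.9 to 30.9. Its TM difference was 2.22 ± 0.11 (limma adjusted p = 9.06e-11). Trib2, a pseudokinase related to Trib3, read 32.1 and 36.6 against 6.84 to 19.8, and Scpep1, a lysosomal carboxypeptidase-like protein, read 384 and 404 against 164 to 235. Wdfy1, an endosomal adaptor protein, read 46.0 and 44.2 against 87.8 to 142. Uggt2, a glucosyltransferase of glycoprotein quality control in the ER, read 23.9 and 20.1 against 37.8 to 58.5. With 1 added before the logarithm, 24 genes were called higher against each strain in place of 10.

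Members that were neighbours among the genes tested formed 37 runs, of which 21 went in 1 direction and 16 in both. The longest runs held 3 genes. Pag1, an adaptor of Src-family kinases, Fabp5 and Pmp2, a myelin fatty acid-binding protein, were all lower on chromosome 3. In TM libraries Fabp5 was called, while Pag1 (limma adjusted p = 0.0123) and Pmp2 (-0.34 ± 0.32, limma adjusted p = 0.682) were not and overlapped the other strains. On chromosome 11, Akap10, an anchor of protein kinase A, was higher at 25.9 and 24.9 against 12.2 to 24.3, with a difference of 0.27 ± 0.16 that was not called. Specc1, a cytoskeletal coiled-coil protein beside it, was lower at 76.3 and 80.9 against 137 to 198. Adora2b, an adenosine receptor, was higher again at 14.7 and 15.8 against 2.97 to 9.32. Specc1 and Adora2b were called in TM libraries (limma adjusted p = 0.00432 and 8.89e-05), and Akap10 was not (limma adjusted p = 0.916).

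At the edge of the rule, Gm38393 was a member because its B6 controls, 18.59 and 21.37, were below the lowest other control, 21.38. Zfp157 was a member because its lower B6 control, 5.166, was above the highest other control, 5.163. Just outside the rule, Itln1 and Lcn2 were listed at 0 in both B6 controls and in at least 1 other control.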

How the data were processed

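RNA of control and TM cultures was sequenced as single-end 100 bp libraries. Per the study's methods and the labels, alignment by the authors was to a genome made for each strain (GRCm38 build for B6), in TopHat 1.4.1, normalized counts by TMM in edgeR, removed libraries that stood apart in a principal component analysis and normalized again. The counting tool and its use of strand are not given in the sources used here, so reads of overlapping genes on opposite strands cannot be told apart. The deposited values are named FPKM, but in all 40 founder libraries they were whole multiples of 1 step per library (tolerance 0.02 of a read). Reads were recovered for 38, since the step of the other 2, PWK TM 2 and WSB TM 1, was so near 0.1 that it could be rounding. They were therefore treated as the authors' signal, TMM-scaled reads per gene, and the planned test on the log scale was kept. Members and gene lists were chosen with earlier results of these data known. The 28 F1 libraries were not used here. A named gene that met the rule is not reported here.

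The 40 founder libraries were joined by gene identifier. Of 13197 genes, 13028 matched GENCODE M21, 169 were left out without a match and 457 because they lay off the autosomes. Genes that reached 0.5 in 2 or more libraries were tested with limma 3.58.1 (R 4.3.3) on log2(value + 0.1), which understates the change of low genes. The contrast was B6 minus the unweighted mean of the 7 other strain means, with Benjamini-Hochberg adjustment over all genes and a call at an adjusted p below 0.01 and 1.5 fold. Named genes were Nnt, the 12 members farthest above and the 12 farthest below the other strains, given a mean of 2 or more in B6 or in the others, members of a gene list, runs of 3 or more neighbouring members, and the genes nearest the rule's edge. The test of TM minus control was added after the data were seen. Scripts were tested on simulated data. Alternatives were edgeR 4.0.16 on the recovered reads, another added number, filters, scaling, a replicate block, and leaving out libraries. The labels do not say that replicates were separate isolations of cells, so p-values measure the spread between cultures only.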

Additional observations from a re-analysis of the deposited data

How the results depend on the processing

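Calls rested on both B6 libraries of each treatment. In controls, 294 genes were called higher and 311 lower, and leaving out single libraries gave 72 to 369 higher and 72 to 401 lower. Without B6 control 2 the calls were 95 and 144, and without B6 control 3 they were 72 and 72. Over the TM libraries the ranges were 80 to 280 higher and 94 to 344 lower. Gene list calls ranged from 10 to 28 higher and 9 to 38 lower, genes called against each of the other 7 strains from 4 to 15 higher and 9 to 24 lower, and members from 323 to 589 higher and 293 to 606 lower. In these summaries a count moved by over 1.5 times only when a B6 library was left out, and the lone B6 library was then assumed to vary like the other strains. Without A control 1 the control calls were 369 and 401.

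Without CAST, PWK and WSB, 188 genes were called higher in controls and the members were 886 higher and 922 lower. A margin of 1.5 fold between B6 and the nearest other control left 32 higher and 23 lower members. With 1 added before the logarithm, 24 genes were called higher against each strain. By edgeR on recovered reads, 380 genes were called higher and 264 lower in controls, and 334 and 222 in TM libraries, so the share called higher grew from 294 of 605 to 380 of 644 and from 249 of 541 to 334 of 556. No named gene with a call reversed direction with 1 added before the logarithm, other scaling, a replicate block, edgeR or 1 library left out. Other genes and settings were not checked for this.

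The labels do not say that a replicate number marks a shared batch. Deviations of same-numbered samples of different strains correlated above 0.1 in 23 of 49 control pairs (-0.251 to 0.644) and 40 of 70 TM pairs (-0.735 to 0.672, median 0.13, against -0.0932 for other numbers). Among pairs with B6 this held for 3 of 12 and 3 of 13. Since not every pair passed, the numbers were not taken to pair the samples. With the number as a block the control calls were 294 higher and 341 lower and the TM calls 260 and 275. Under the block Nnt differed by -0.58 in TM libraries, below 1.5 fold, and was no longer called, while Plagl1 was called in controls. The block changed no other call of a named gene.

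Without 1 of the B6 controls, the control calls of Adora2b, Chac1, Csf3, Fmn2, Grem1, Lama4, Ly6c1, Me3, Mmp11, Nnt, Pag1, Pmp2, Serpina3g, Sh2d6, Stc1, Trim12a and Ugt1a7c were lost, and without 1 of the B6 TM libraries the TM calls of Adora2b, Car6, Csf3, Fabp5, Fmn2, Grem1, Hoxb9, Me3, Mmp11, Myct1, Nnt, Serpina3g, Specc1 and Stc1. In edgeR the TM calls of Myct1 and Csf3 were lost. The control calls of Csf3, Pmp2 and Itln1 were lost in edgeR and with 1 added before the logarithm.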
